A study of Rattus norvegicus with 7 samples.

Results

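The genes described here are the CCN matricellular genes and a set of genes known to respond to, or to encode, the transcriptional coactivator YAP, in rat bone marrow mesenchymal stem cells (rMSCs) 4 h after seeding. The 9 genes, of 17147 listed, are Ctgf, Cyr61, Nov, Wisp1 and Wisp2 of the CCN family, the YAP targets Ankrd1, Amotl2 and Axl, and Yap1 itself. They were picked by name around Wisp2, and Wisp2 was picked because it was higher on tissue culture plastic than on polymer films in these same libraries. The values on plastic against the films are therefore a description and carry no test. The study asked how cells that attach to a new elastic polymer differ in gene expression from cells on other surfaces. The rMSCs were taken from the bone marrow of a male Sprague-Dawley rat aged 6 weeks, and 20000 cells were plated either on bare tissue culture plate plastic (TCP), on a 16 mm film of polycaprolactone (PCL), a degradable polyester, or on a film of ISB-P, a PCL-based polyurethane made with propoxylated isosorbide. All 3 surfaces received the same untreated cells, and mRNA was sequenced after 4 h. There was 1 library for TCP, 3 for PCL and 3 for ISB-P. The sources used here speak of triplicates without saying whether these were separate animals or cultures, so p-values measure the spread between these libraries, which may be technical.

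CCN proteins are secreted into the extracellular matrix, where they bind integrins, heparan sulphate proteoglycans and growth factors rather than serving as structural fibres. Cyr61 (CCN1), Ctgf (CCN2, connective tissue growth factor) and Nov (CCN3) were the founding members, and Wisp1 (CCN4) and Wisp2 (CCN5) are Wnt-induced relatives. Wisp2 lacks the C-terminal cystine knot domain that the others carry. YAP and its relative TAZ are coactivators that enter the nucleus when cells spread, attach firmly or meet a stiff surface and when the Hippo kinases are inactive, and they then bind TEAD factors on DNA. Ctgf, Cyr61, Ankrd1, Amotl2 and Axl are widely used readouts of this activity. Amotl2 encodes an angiomotin that in turn holds YAP in the cytoplasm, Axl encodes a receptor tyrosine kinase, and Ankrd1 encodes a nuclear ankyrin repeat protein.

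The promoters are shown because the TEAD site is the DNA element through which YAP acts. RefSeq sequence of the rat build GRCr8 held a promoter window for 5 of the 9 genes, namely Ctgf, Cyr61, Amotl2, Axl and Yap1, while Nov, Wisp1, Wisp2 and Ankrd1 had no entry. The 250 bases before the gene start are printed 5′ to 3′ on the strand of the gene, with the TEAD core in capitals, as GGAATG or as its reverse complement CATTCC. They lie at chr1:22624615-22624864 on the minus strand for Ctgf, chr2:237225690-237225939 on the minus strand for Cyr61, chr8:112182376-112182625 on the plus strand for Amotl2 and chr8:13451438-13451687 on the minus strand for Yap1.
Ctgf: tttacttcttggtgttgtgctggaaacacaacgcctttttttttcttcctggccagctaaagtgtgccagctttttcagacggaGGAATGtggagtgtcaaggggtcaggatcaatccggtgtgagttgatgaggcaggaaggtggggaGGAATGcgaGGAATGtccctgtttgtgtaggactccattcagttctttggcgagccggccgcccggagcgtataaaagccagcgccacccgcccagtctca
Cyr61: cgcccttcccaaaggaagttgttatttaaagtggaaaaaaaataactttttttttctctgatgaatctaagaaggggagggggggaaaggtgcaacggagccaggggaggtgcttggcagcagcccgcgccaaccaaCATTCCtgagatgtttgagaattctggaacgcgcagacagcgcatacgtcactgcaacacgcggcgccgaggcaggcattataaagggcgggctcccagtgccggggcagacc
Amotl2: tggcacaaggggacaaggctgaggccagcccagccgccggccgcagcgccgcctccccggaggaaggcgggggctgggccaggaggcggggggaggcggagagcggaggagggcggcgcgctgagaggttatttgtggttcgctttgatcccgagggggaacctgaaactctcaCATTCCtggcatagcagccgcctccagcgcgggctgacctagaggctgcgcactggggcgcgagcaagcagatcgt
Yap1: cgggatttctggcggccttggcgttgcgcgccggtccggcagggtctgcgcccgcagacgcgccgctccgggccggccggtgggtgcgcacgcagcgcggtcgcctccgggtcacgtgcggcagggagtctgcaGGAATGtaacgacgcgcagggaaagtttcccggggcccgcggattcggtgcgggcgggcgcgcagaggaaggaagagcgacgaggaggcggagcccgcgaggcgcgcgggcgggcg

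Ctgf held 3 TEAD cores in this window, beginning at -166, -101 and -92 from the gene start. Cyr61 held 1 at -113 and Amotl2 1 at -76, both on the opposite strand, and Yap1 held 1 at -116. The Axl window, at chr1:90424010-90424259 on the minus strand, held none. Of 33469 RefSeq windows of the same length, 12.1% held at least 1 core on either strand, and 27 windows (0.0807%) held 3 or more, so the Ctgf count is uncommon among rat promoters. A search on both strands for the AP-1 element TGANTCA, present in 6.34% of the windows, and for the SRF CArG box, present in 1.497%, found neither in the 5 windows. These are matches of letters and not measured binding.

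On TCP, Wisp2 and Ctgf stood far above their levels on either film, Cyr61 and Amotl2 stood about as far as the 2-fold line, and Nov, Wisp1, Axl and Yap1 lay nearer to the films. Expression is given in FPKM, fragments mapped to a gene after correction for transcript length and library size. Wisp2, the CCN member without the cystine knot, was at 167 FPKM on TCP, at 25.6, 29.3 and 23.3 in PCL replicates 1 to 3 and at 39.9, 38.1 and 30.1 in ISB-P replicates 1 to 3. Ctgf was at 119 FPKM on TCP, at 27.2, 32.0 and 32.9 on PCL and at 24.3, 25.1 and 24.9 on ISB-P. Neither gene's TCP value came near any film library, as TCP exceeded the highest film value 4.17 times for Wisp2 and 3.61 times for Ctgf. Cyr61, an immediate early member of the family, was at 83.1 FPKM on TCP, at 37.4, 42.8 and 40.7 on PCL and at 32.2, 34.3 and 29.8 on ISB-P. Nov was the lowest of the 5 CCN genes chosen, at 6.22 FPKM on TCP, 4.94, 4.81 and 4.83 on PCL and 4.15, 3.93 and 3.76 on ISB-P. Wisp1 was at 36.7 FPKM on TCP, 31.8, 29.6 and 25.1 on PCL and 35.2, 33.2 and 24.3 on ISB-P. Wisp1 on TCP was only 1.04 times its highest film library, whereas Nov was 1.26 times and Cyr61 1.94 times theirs.

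**Figure D1:**
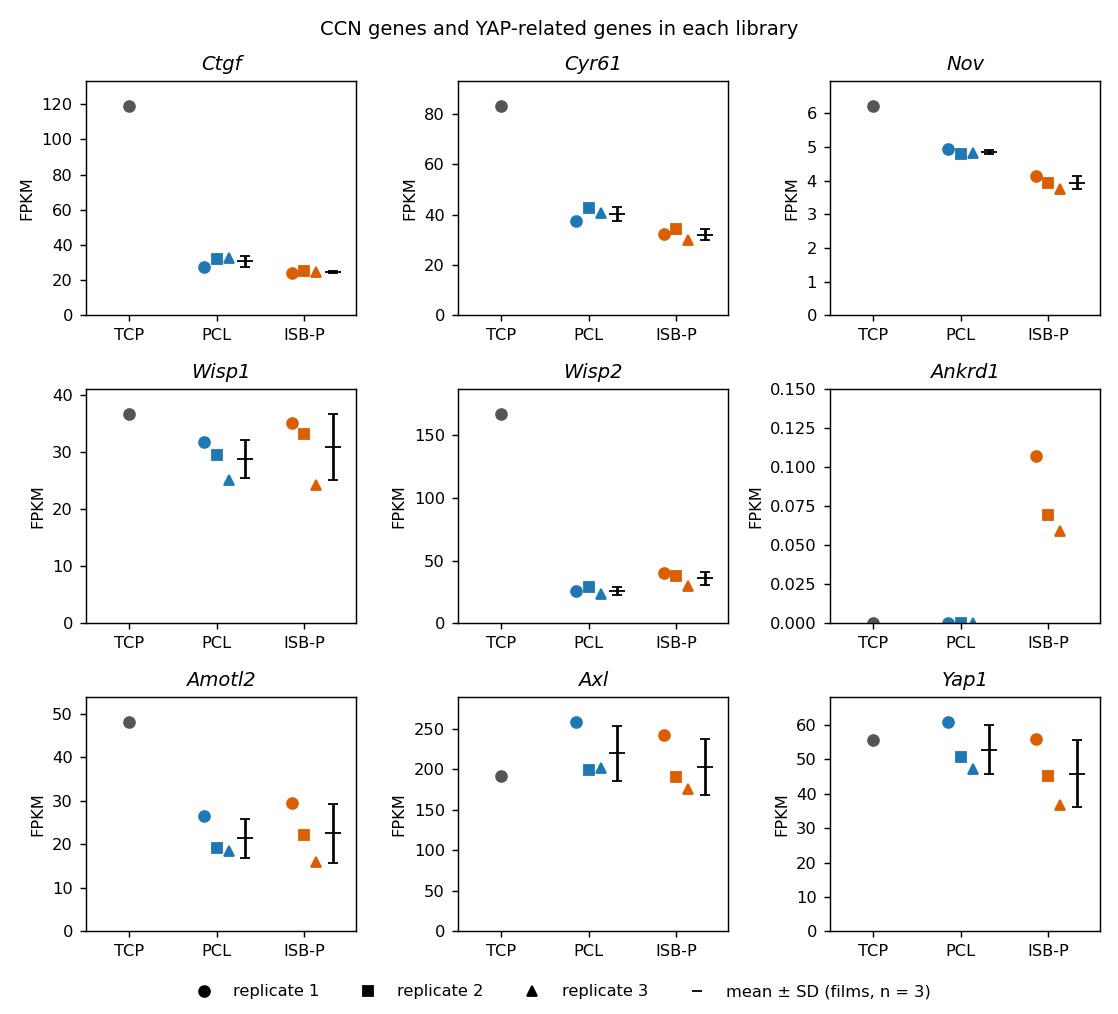
Level in FPKM (vertical axes) of each of the 9 genes in the 7 libraries, grouped by surface (TCP, PCL, ISB-P), with a point per library, its shape giving the replicate, and a bar with the mean and SD of each film (n = 3), left out for Ankrd1. Wisp2 at 167 and Ctgf at 119 FPKM on TCP lie far above all 6 film libraries, while Axl and Yap1 on TCP lie within the film range.

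Among the YAP genes, Amotl2 was at 48.1 FPKM on TCP, at 26.5, 19.1 and 18.5 on PCL and at 29.4, 22.1 and 16.0 on ISB-P, so its TCP value was above all 6 film libraries. Axl was the most abundant gene of the 9 on all 3 surfaces. It was at 192 FPKM on TCP, at 258, 199 and 201 on PCL and at 242, 191 and 175 on ISB-P, and TCP exceeded only 2 of the 6 film libraries. Yap1 was at 55.5 FPKM on TCP, at 60.9, 50.6 and 47.2 on PCL and at 55.9, 45.1 and 36.6 on ISB-P, and TCP exceeded 4 of the 6. Amotl2, Axl and Yap1 had their highest film value in replicate 1 on both films. Ankrd1 was listed at 0 on TCP and in the 3 PCL libraries and at 0.107, 0.0691 and 0.0592 FPKM on ISB-P. An exact 0 in these files can be a failed estimate, since the collagen gene Col1a2 was also listed at 0 in all 7 libraries, and Ankrd1 entered no comparison.

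Expressed as a ratio of FPKM + 1, TCP exceeded the PCL mean 6.199-fold and the ISB-P mean 4.53-fold for Wisp2. For Ctgf the ratios were 3.78-fold and 4.65-fold. Cyr61 was 2.04-fold and 2.54-fold higher on TCP, and Amotl2 2.19-fold and 2.09-fold. The remaining log2 ratios to PCL and ISB-P were 0.30 and 0.54 for Nov, 0.34 and 0.24 for Wisp1, 0.07 and 0.27 for Yap1, and -0.19 and -0.08 for Axl. Both ratios of a gene share the same single TCP library. Thus 4 of the 8 genes with a usable level were over 2-fold above each film mean, against 3.46% of 9529 genes over 2-fold above the PCL mean and 4.67% above the ISB-P mean. None of the 8 was over 2-fold below a film mean, where 5.50% of all genes were below PCL and 8.86% below ISB-P by that much. TCP was above all 6 film libraries for 6 of the 8, against 26.3% of all genes. The median log2 ratio of the 8 genes was 0.68 to PCL and 0.80 to ISB-P, against -0.07 and -0.06 over all genes. Only 8 genes (0.0840%) had a larger TCP to PCL ratio than Wisp2 and 46 (0.483%) a larger one than Ctgf, and 23 and 22 genes had a larger TCP to ISB-P ratio. Since the genes were chosen on this contrast, nothing is read from these counts. Scaling each library to a common FPKM total moved the median TCP to ISB-P log2 ratio of all genes from -0.06 to 0.11. The count over 2-fold was 3 without PCL replicate 1, where the Cyr61 log2 ratio to PCL was 0.98, and 3 without ISB-P replicate 3, where the Amotl2 log2 ratio to ISB-P was 0.87.

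**Figure D2:**
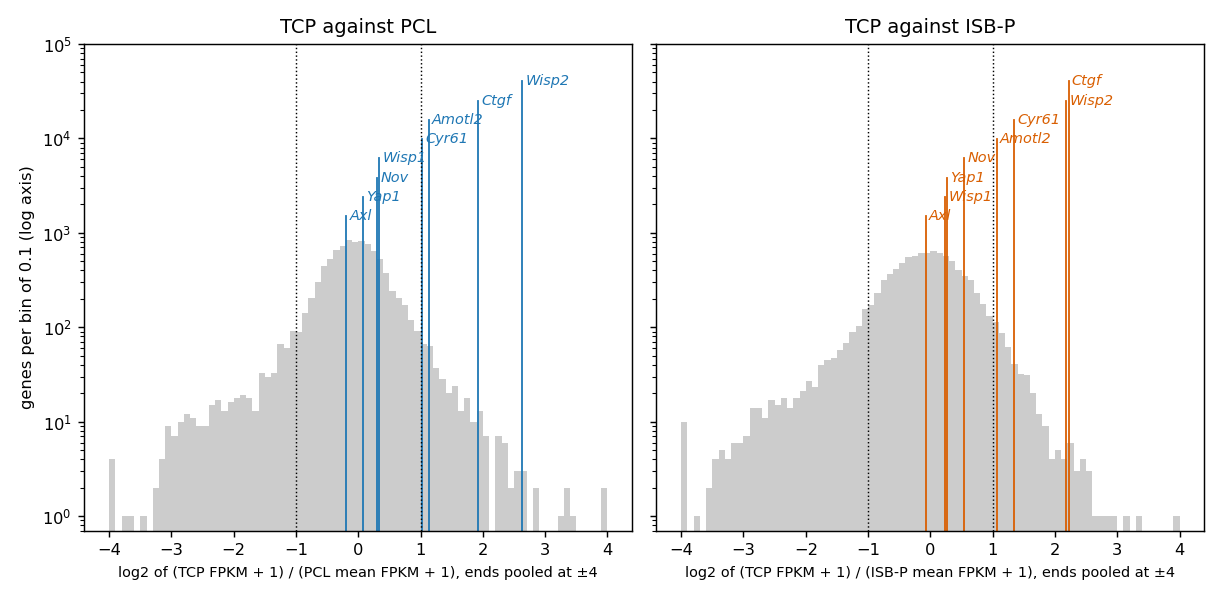
Distribution over 9529 genes (grey, log vertical axis, genes per bin of 0.1) of the log2 ratio of TCP to the PCL mean (left) and to the ISB-P mean (right) on the FPKM + 1 scale, with values past 4 pooled at the ends. Lines, whose heights only separate the names, mark the 8 described genes and dotted lines mark 2-fold, with Wisp2 at 2.63 and Ctgf at 1.92 on the left and 2.18 and 2.22 on the right.

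In bulk RNA, fewer cells of a type and less RNA per cell cannot be told apart. The mesenchymal genes Thy1 (925 to 1210 FPKM) and Cd44 were present in every library, and the 10 mesenchymal markers summed to 12698 FPKM on TCP, 7040 to 7976 on PCL and 6611 to 7982 on ISB-P. Most of that sum was the collagen gene Col1a1, at 10406 FPKM on TCP, 6058, 5439 and 4610 on PCL and 6010, 4928 and 3868 on ISB-P. Of the 9 mesenchymal markers that passed the level filter, 4 (Col1a1, Thy1, Eng and Vcam1) were above all 6 film libraries on TCP, against 26.3% of all genes. Vcam1 was at 32.8 FPKM on TCP and at most 22.2 on the films. Itgb1, Alcam, Nt5e, Cd44 and Pdgfrb on TCP lay within the film range. Of the mesenchymal markers, the growth factor receptor gene Pdgfrb averaged 166 ± 11.6 FPKM on PCL and 97.8 ± 11.5 on ISB-P (SD, n = 3 each; limma adjusted p = 0.0510, or 0.000141 with the replicate number as a block). Like the mesenchymal sum, the haematopoietic, adipocyte, endothelial and smooth muscle sums were higher on TCP than in any film library, while the osteoblast sum was not. The summed level of the 7 haematopoietic markers in the files was 56.6 FPKM on TCP, 22.7 to 25.9 on PCL and 18.1 to 21.4 on ISB-P. Of the 4 that passed the level filter, 3 (Cd14, Cd68 and Csf1r) were over 2-fold above both films. Itgam passed it only through TCP, at 2.56 FPKM against means of 0.886 on PCL and 0.863 on ISB-P. The pan-leukocyte gene Ptprc was at 1.48 FPKM on TCP and 0.433 to 1.23 on the films, and Cd34 was listed at 0 throughout. The sum of the 5 adipocyte markers was 116 FPKM on TCP, 29.9 to 46.5 on PCL and 34.0 to 58.3 on ISB-P. Of the 4 that passed the filter, Fabp4 and Lpl were over 2-fold above both films. Plin1 and Cfd were too, but both passed the filter only through TCP. Their means on PCL and ISB-P were 0.578 and 0.464 FPKM for Plin1 and 0.721 and 0.618 for Cfd. Adipoq, the defining adipocyte hormone, was at 1.58 FPKM on TCP and at most 0.332 on the films. Endothelial markers summed to 1.14 FPKM on TCP and at most 0.651 on the films, and smooth muscle markers to 969 FPKM on TCP, 752 to 801 on PCL and 681 to 827 on ISB-P. Osteoblast markers summed to 728 FPKM on TCP, 723 to 839.8 on PCL and 662 to 705 on ISB-P. Most of that sum was Spp1, at 697 FPKM on TCP, 705 to 827 on PCL and 644 to 695 on ISB-P. Sp7, the osteoblast transcription factor osterix, was at 15.6 FPKM on TCP against means of 7.06 and 5.49 on the films. Alpl and the low Ibsp were also higher on TCP than either film mean, while Bglap was listed at 0 there. The part of these cells in the TCP values of Wisp2, Ctgf, Cyr61 and Amotl2 was not tested.

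Between the films, Ctgf, Cyr61 and Nov were lower on ISB-P than on PCL in every library, and Wisp2 was higher on ISB-P in every library. The size of these differences was small, and none passed the test without the pairing of libraries. Ctgf averaged 30.7 ± 3.03 FPKM on PCL and 24.7 ± 0.412 on ISB-P (SD, n = 3 each), with a log2 difference, ISB-P minus PCL on the FPKM + 1 scale, of -0.30 (SE 0.13). Cyr61 averaged 40.3 ± 2.73 and 32.1 ± 2.22 FPKM, a log2 difference of -0.32 (SE 0.12). Nov averaged 4.86 ± 0.0685 and 3.95 ± 0.195 FPKM, a log2 difference of -0.24 (SE 0.10). Wisp2 moved the other way, from 26.1 ± 3.03 on PCL to 36.1 ± 5.22 FPKM on ISB-P, a log2 difference of 0.45 (SE 0.16). For these 4 genes the ranges of the films did not overlap, and 17.7% of the 9467 genes tested had no overlap. An exact two-sided permutation test gave p = 0.1 for each of the 4, the smallest value that 3 libraries against 3 allow.

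With limma on log2(FPKM + 1) and Benjamini-Hochberg adjustment over all genes tested, 0 of the 8 genes passed an adjusted p of 0.05, against 1.72% of the 9467 genes. At an unadjusted p of 0.05 the count was 3 of 8, against 12.1% of all genes. The limma adjusted p was 0.306 for Wisp2, 0.363 for Cyr61, 0.402 for Nov and 0.426 for Ctgf. The median log2 difference of the 8 genes was -0.17, against 0.02 over all genes. Scaling to a common total moved the median of all genes to -0.09, and the difference of each of the 8 genes fell as well. Under that scaling it was -0.41 for Ctgf, -0.43 for Cyr61, -0.34 for Nov and 0.34 for Wisp2. The same-numbered libraries of the films deviated together, so a fit with the replicate number as a block is also given. No source used here states that these libraries are pairs, and the pairing was judged from these same data. In that fit limma called Wisp2 higher on ISB-P (adjusted p = 0.00564) and Cyr61 (adjusted p = 0.0181) and Ctgf (adjusted p = 0.0265) lower, which makes 3 of 8 against 24.4% of all genes. Within the pairs, ISB-P was at 1.56, 1.30 and 1.29 times PCL for Wisp2. The ratios were 0.892, 0.785 and 0.756 for Ctgf, 0.862, 0.801 and 0.732 for Cyr61 and 0.841, 0.818 and 0.779 for Nov. Wisp2 was thus higher on ISB-P in 3 of 3 pairs, and Ctgf, Cyr61 and Nov were lower in 3 of 3. The lack of overlap between the films already requires this for these genes. Of all genes, 30.5% were higher and 27.7% lower in all 3 pairs. Without the pair of replicate 2, Ctgf and Cyr61 were no longer called by limma with the block (adjusted p = 0.115 and adjusted p = 0.0524), while Wisp2 was (adjusted p = 0.00168).

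Wisp1, Amotl2, Axl and Yap1 overlapped between the films. Wisp1 averaged 28.8 ± 3.40 FPKM on PCL and 30.9 ± 5.80 on ISB-P, and Amotl2 21.4 ± 4.46 and 22.5 ± 6.74 (SD, n = 3 each). Their log2 differences were 0.09 (SE 0.18) and 0.05 (SE 0.25). Axl averaged 219.7 ± 33.6 and 202.9 ± 35.03 FPKM, a log2 difference of -0.12 (SE 0.18), and Yap1 52.9 ± 7.12 and 45.9 ± 9.65, a log2 difference of -0.21 (SE 0.19). Yap1 was lower on ISB-P within each pair, at 0.918, 0.891 and 0.777 times PCL, and so was Axl, at 0.938, 0.958 and 0.871 times. Neither was called by limma with the block (adjusted p = 0.0744 for Yap1 and adjusted p = 0.218 for Axl). Nov was not called with the block either (adjusted p = 0.0702). The pairs of Wisp1 and Amotl2 fell on both sides of PCL.

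**Figure D3:**
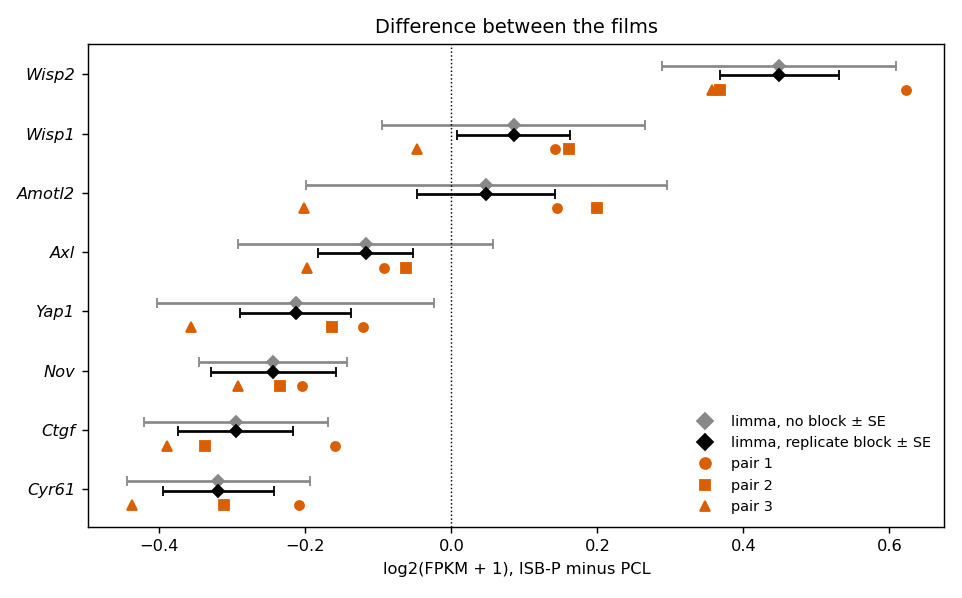
Log2 difference in FPKM + 1 between ISB-P and PCL (horizontal axis) for the 8 tested genes, with diamonds and bars for the limma estimate ± SE without (grey) and with (black) the replicate block and orange symbols for the 3 same-numbered pairs. Wisp2 lies at 0.45 to the right of 0, Cyr61, Ctgf and Nov lie to the left at -0.32, -0.30 and -0.24, and the pairs of Wisp1 and Amotl2 fall on both sides.

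The make-up of the CCN family, taken as shares of summed FPKM, differed between the surfaces. The 6 family genes, with the low Wisp3 added for completeness, summed to 412 FPKM on TCP, to 128, 139.6 and 129 on PCL and to 137, 136 and 115 on ISB-P. Wisp2 made up 40.5% of that sum on TCP, 20.0%, 21.0% and 18.1% on PCL and 29.1%, 28.0% and 26.2% on ISB-P. The Wisp2 share was thus higher in each ISB-P library than in any PCL library, and highest on TCP. Ctgf made up 28.8% on TCP, 21.3%, 22.9% and 25.6% on PCL and 17.7%, 18.4% and 21.7% on ISB-P. Wisp1 made up 8.90% on TCP, 19.5 to 24.9% on PCL and 21.2 to 25.7% on ISB-P. Wisp3 (CCN6) was below all 6 film libraries on TCP, at 0.386 FPKM on TCP, 1.01, 1.21 and 1.72 on PCL and 1.27, 1.56 and 1.92 on ISB-P.

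Ratios between genes within a library do not depend on scaling by a single factor per library, although quantile normalization can change them. The ratio of Wisp2 to Ctgf, chosen after its values were seen, was 1.40 on TCP, 0.940, 0.917 and 0.709 on PCL and 1.64, 1.52 and 1.21 on ISB-P. Wisp2 exceeded Ctgf on TCP and in each ISB-P library and was below it in each PCL library. The ratio of Cyr61 to Ctgf was 0.6998 on TCP, 1.37, 1.34 and 1.24 on PCL and 1.33, 1.37 and 1.20 on ISB-P, with the films overlapping. Against Yap1, the coactivator's own mRNA, Ctgf was at 2.14 on TCP, 0.448, 0.632 and 0.697 on PCL and 0.435, 0.557 and 0.678 on ISB-P. Amotl2 against Yap1 was at 0.866 on TCP, 0.436, 0.378 and 0.392 on PCL and 0.527, 0.490 and 0.436 on ISB-P. Ctgf and Amotl2 were therefore higher for a given Yap1 mRNA level on TCP than in any film library. Cyr61 against Yap1 was also highest on TCP. Axl went the other way and was lowest there. Axl against Yap1 was at 3.46 on TCP, 4.25, 3.94 and 4.27 on PCL and 4.34, 4.24 and 4.79 on ISB-P.

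**Figure D4:**
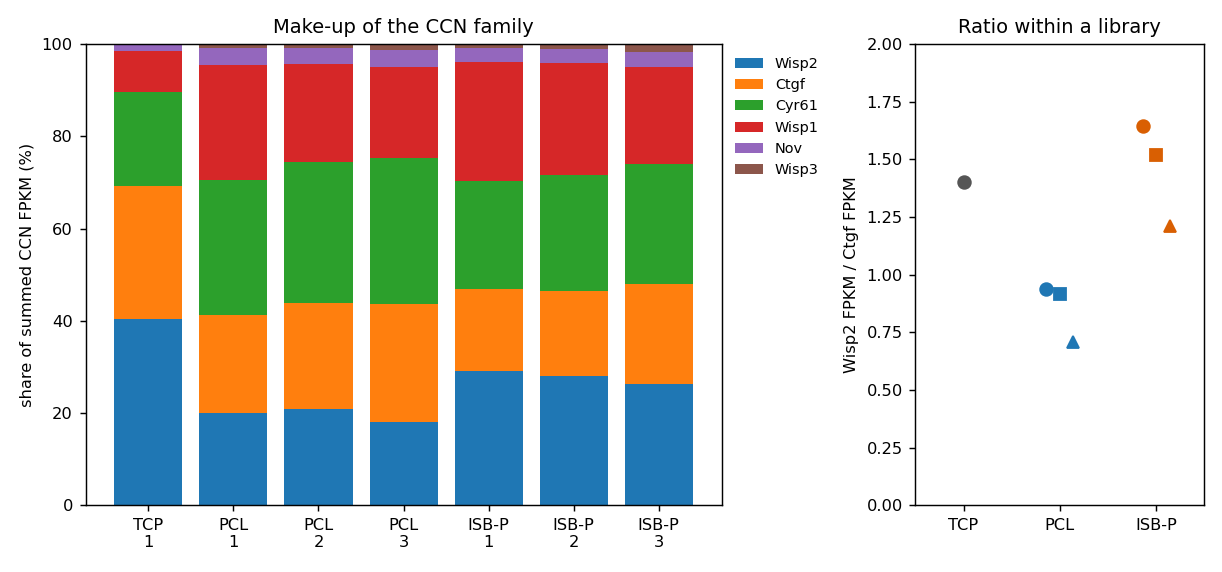
Left, stacked bars of the share (%) of each CCN gene in the summed CCN FPKM of each of the 7 libraries. Right, the ratio of Wisp2 to Ctgf FPKM, with a point per library, where PCL lies between 0.709 and 0.940, ISB-P between 1.21 and 1.64 and TCP at 1.40. Wisp2 takes 40.5% of the family sum on TCP, 18.1 to 21.0% on PCL and 26.2 to 29.1% on ISB-P.

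The order of levels differed between surfaces. On TCP it ran from Axl through Wisp2, Ctgf, Cyr61, Yap1, Amotl2, Wisp1 and Nov to Ankrd1. On PCL it was Axl, Yap1, Cyr61, Ctgf, Wisp1, Wisp2, Amotl2 and Nov, and the ranges of the neighbours Ctgf and Wisp1, Wisp1 and Wisp2, and Wisp2 and Amotl2 overlapped. On ISB-P it was Axl, Yap1, Wisp2, Cyr61, Wisp1, Ctgf, Amotl2 and Nov, with each neighbouring pair from Yap1 to Amotl2 overlapping. Wisp2 thus stood next to Axl on TCP but among the middle genes on the films.

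In a longer list of YAP and TAZ target genes, members lay on both sides of 0 between the films. Of the 22 genes of that signature, 18 were in the files and 17 were tested between the films, and limma called 0 higher and 0 lower, or 3 higher and 4 lower with the replicate block. The shares of all genes called, 1.72% without and 24.4% with the block, are the background for this list and for those that follow. The median log2 difference was -0.03. Without the genes described above, 13 were tested, and with the block 3 were higher on ISB-P (F3, Gadd45a and Tgfb2) and 2 lower (Lats2 and Ptpn14). F3, which encodes tissue factor, the cell surface starter of coagulation, was at 54.1 FPKM on TCP, at 80.4, 109 and 132 on PCL and at 237, 297 and 460 on ISB-P. Its log2 difference was 1.59 (SE 0.29), with a limma adjusted p of 0.0508, or 6.07e-06 with the block. Without the block the adjusted p ranged from 0.0305 to 0.235 over the alternatives, passing under the 3 scalings and missing without each film library in turn. Gadd45a, a growth arrest and DNA damage response gene, averaged 29.0 ± 5.14 FPKM on PCL and 56.3 ± 7.14 on ISB-P (SD, n = 3 each; limma adjusted p = 0.0523, or 7.48e-05 with the block, and 0.0305 to 0.269 over the alternatives without it, passing under the same scalings) and was at 15.4 on TCP. Tgfb2, a secreted TGF-beta ligand, averaged 38.5 ± 10.4 on PCL and 62.8 ± 16.1 FPKM on ISB-P (limma adjusted p = 0.359, or 0.000417 with the block) and was at 44.5 on TCP. F3 and Gadd45a were therefore lowest on TCP, where Ctgf and Cyr61 were highest.

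Of the same 13 genes, 1 was over 2-fold above the films on TCP and 2 (F3 and Gadd45a) over 2-fold below the ISB-P mean, with median log2 ratios of 0.20 to PCL and -0.09 to ISB-P. The gene above was Ccdc80, which encodes a matrix-associated protein, at 352 FPKM on TCP against film means of 130 on PCL and 128 on ISB-P. TCP was above all 6 film libraries for 5 of the 13, against 26.3% of all genes, and below all 6 for 3, against 29.3%. Over all genes, 8.86% were over 2-fold below the ISB-P mean.

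**Figure D5:**
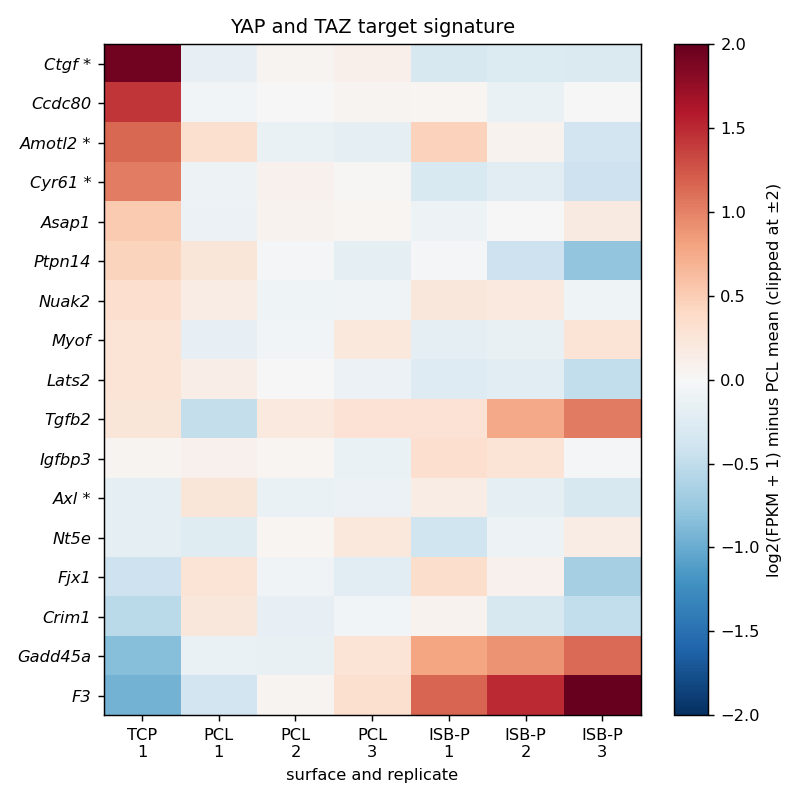
Log2 level of the YAP and TAZ signature genes in the 7 libraries relative to each gene's PCL mean, as a colour scale that ends at 2 either way on the log2(FPKM + 1) scale. Asterisks mark those among the 9 genes picked by name. Ctgf, Cyr61, Amotl2 and Ccdc80 are highest on TCP, and F3 and Gadd45a are lowest there and highest on ISB-P.

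The upstream Hippo list, of kinases and scaffolds that restrain YAP together with LIM proteins that act against the kinases, held 20 of 21 listed genes in the files and 19 tested between the films. Limma called 0 higher and 1 lower on ISB-P, or 1 higher and 3 lower with the block. Among the 3 lower with the block, Lats2 and Ptpn14 are on both this list and the signature and were already counted there. The gene called without the block was Ajuba, a LIM-domain scaffold known to bind and inhibit the Hippo kinase Lats. Ajuba was at 19.9 FPKM on TCP, at 13.7, 12.1 and 11.7 on PCL and at 7.02, 5.66 and 4.09 on ISB-P. Its log2 difference was -1.06 (SE 0.19), with a limma adjusted p of 0.0491, or 0.000239 with the block. The adjusted p ranged from 0.0436 to 0.240 over the alternatives without the block, and passed in only 1 of them, without ISB-P replicate 1 (0.0436). The call without the block was lost when PCL replicate 1, 2 or 3 was left out (0.179, 0.231 and 0.173) and when ISB-P replicate 2 (0.240) or 3 (0.0557) was. Fat4, an atypical cadherin of the pathway, was the Hippo gene over 2-fold above both films on TCP, at 7.30 FPKM against means of 2.53 on PCL and 2.11 on ISB-P. Of the YAP, TAZ, TEAD and Vgll genes 6 of 10 were tested, with 0 called between the films, or 0 higher and 2 lower with the block. Vgll4, a TEAD-binding competitor of YAP, was at 55.6 FPKM on TCP and averaged 27.8 ± 2.14 on PCL and 17.2 ± 2.21 on ISB-P (SD, n = 3 each). Its film difference of -0.67 on the log2 scale had a limma adjusted p of 0.0902, or 0.00122 with the block.

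The proteins that CCN ligands and Axl bind were also looked at by list. All 8 CCN receptor genes, mostly integrin subunits, were tested and limma called 0 between the films, or 1 lower with the block, and 0 of 8 differed over 2-fold between TCP and either film mean. Among the TAM receptors, to which Axl belongs, and their ligands, 4 of 5 were tested and 0 called with or without the block. Gas6, the ligand of Axl, was at 182 FPKM on TCP against means of 67.4 on PCL and 64.2 on ISB-P, while Axl itself was not above the films. Of the 11 TGF-beta ligands, receptors and Smads, 0 were called, or 2 higher and 1 lower with the block. Tgfb2, already counted in the signature, was among the 2 higher. The list of 10 MRTF and SRF regulators and targets had 8 tested, and the targets are cytoskeletal genes that also respond to spreading. Limma called 0 of them, or 1 lower with the block, and 0 differed over 2-fold on TCP. The gene called with the block was Srf, the transcription factor itself (adjusted p = 0.00852), and not a cytoskeletal gene. The angiomotin list had Amotl2 as its single tested gene, and the 3 muscle ankyrin repeat genes, Ankrd1 among them, were below the level filter.

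The genes whose level over the 7 libraries was most like Wisp2, by Pearson's r on log2(FPKM + 1) among 3301 genes with a log2 range of at least 1, were Itgb2 (0.997), Oasl (0.997), Ass1 (0.995), Nr4a3 (0.994) and Pi16 (0.991). The most like Ctgf were Arntl2 (0.994), Fat4 (0.993), Serping1 (0.991), Sfrp1 (0.989) and Cd83 (0.989). No gene was on both lists, and r between Wisp2 and Ctgf was 0.892. Nr4a3 and Pi16 passed the filter of 1 FPKM over the 3 surface means only through TCP, at 3.12 and 3.75 FPKM. Their highest film values were 1.19 and 1.24 FPKM. The points share the 1 TCP library, far from the others for Wisp2 and Ctgf, so these values are given without a p.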

How the data were processed

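The deposited FPKM values, 1 table for each of the 7 libraries, were used as the authors made them. The submitters' processing notes name bcl2fastq 2.20.0.422, cutadapt 1.18, TopHat2 2.0.13, Cuffdiff 2.2.1 and the build rn5, with no role or order, and the libraries were stranded, poly(A)-selected and read from both ends. Summed FPKM was 539393 on TCP, 542921 to 597954 on PCL and 590628 to 660124 on ISB-P, and 4537 to 5105 genes were listed at 0. The unit is not written in the tables and was taken as FPKM from Cuffdiff among those tools and from the values. No counts are in these tables, so the depth of each library is unknown and no counting interval is given.

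The members, gene lists and tests were chosen with earlier results of these data known. ISB-P was compared with PCL on the log2(FPKM + 1) scale in limma 3.58.1 (R 4.3.3), with the prior variance following the mean and two-sided p-values adjusted by Benjamini-Hochberg. The 9467 genes tested reached 1 FPKM in 3 or more of the 6 film libraries. TCP, with 1 library, was compared by ratios of FPKM + 1 with the film means over 9529 genes whose 3 surface means averaged at least 1 FPKM. Deviations from the group means correlated between same-numbered PCL and ISB-P libraries (0.887, 0.431 and 0.867 across genes), so a fit with the replicate number as a block is given where it changes a call. The pairing comes from the replicate numbers in the labels, and the methods name none. Besides the members, genes were named from each list if they passed an adjusted p of 0.05, with or without the block, at over 1.5-fold (up to 4), or were among the 3 furthest past 2-fold on TCP. For Wisp2 and Ctgf the 5 genes most like each were named. Some marker genes, Wisp3, Lats2, Ptpn14, Srf and Col1a2 were named outside this rule, after their values were seen. Alternatives were other scalings, a pseudocount of 0.1 FPKM, other level filters, the block and leaving out libraries. Promoter windows came from RefSeq GRCr8, a build other than that of the files.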

Additional observations from a re-analysis of the deposited data

How the results depend on the processing

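The count of 0 described genes called between the films was the same under the 3 scalings, the pseudocount of 0.1 FPKM, both other level filters and without each film library in turn. With the replicate block it was 3. Among all genes, 163 were called, against 105 with at least 1 FPKM in all 6 film libraries, 20 to 113 without a film library in turn, and 2307 with the block. Without the pairs of replicates 1, 2 and 3 in turn, fits with the block and 1 residual degree of freedom, an alternative chosen after seeing the data, called 1773, 2004 and 3137 genes and 3, 1 and 3 of the described genes. On scaling to a common total the log2 difference turned to -0.027 for Wisp1 and -0.063 for Amotl2, and that of Amotl2 to -0.00080 and -0.028 without the pairs of replicates 1 and 2. Without a film library in turn it ran from -0.015 to 0.24 for Wisp1, from -0.16 to 0.26 for Amotl2 and from -0.25 to 0.0045 for Axl; the cause was not tested. Ctgf, Cyr61, Nov, Wisp2 and Yap1 kept their sign under these alternatives, with a limma adjusted p without the block of 0.197 to 0.901 for Ctgf, 0.233 to 0.857 for Cyr61, 0.266 to 0.848 for Nov and 0.178 to 0.774 for Wisp2. The block changed no call of another described gene. Genes over 2-fold above a film mean on TCP numbered 3 to 4, and 6 were above all film libraries throughout. With 1 TCP library and no counts, the error of the TCP values is unknown.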
